A study of Mus musculus with 35 samples.

Results

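The effect of diet was examined in CD8 T cells of the spleen that had been sorted as lacking the chemokine receptor CX3CR1 (the CX3CR1neg fraction). The comparison was defined by the labels alone: 6 libraries labelled CD-HFD were set against 5 labelled ND, 11 of the 35 samples the series names, and all 6174 genes that passed the filter on low counts, of 22865 in the table, were tested. The mice were C57BL/6 and 13 months old in both groups, and no transgene, deletion or other treatment is named for either. CD-HFD is the usual abbreviation of a choline-deficient high-fat diet and ND of normal diet; the labels do not give the length of feeding or say which libraries came from the same animal. The same study holds liver CD8 T cells divided by the receptor CXCR6, which are used here only to show where the spleen differed. A sixth ND spleen library had the same counts as a liver library in every gene and was left out.

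A choline-deficient high-fat diet is a model of fatty liver inflammation. Choline is needed to export fat from the liver as lipoprotein, so fat builds up in hepatocytes, and CD8 T cells accumulate in the inflamed organ. The spleen is a site of blood filtration and of T cell recirculation, and CX3CR1 marks the most differentiated effector CD8 T cells, so that a CX3CR1neg sort keeps naive cells, central memory cells and other memory cells. In such cells TCF1 (encoded by Tcf7) and the IL-7 receptor mark the naive and central memory state, granzymes and Ccl5 mark effector and memory function, and PD-1 (encoded by Pdcd1) with the transcription factor TOX marks chronic antigen stimulation.

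The depth was 169106 to 688547 counts per library in ND (median 427360) and 225036 to 978896 in CD-HFD (median 523614), with 10797 to 14156 and 11370 to 14953 genes detected. Levels below are counts scaled to library size by the TMM method (CPM), and since each count comes from the 3′ end of a transcript, they carry no correction for length. The mitochondrial share of counts was 3.19 to 3.89% in ND and 2.90 to 3.71% in CD-HFD. Markers of the labelled cell type were read first. Cd8a, a chain of the CD8 co-receptor, was at 1012 ± 59.7 CPM (SD, n = 5) in ND and 1004 ± 103 (n = 6) in CD-HFD. Cd3e, a subunit of the T cell receptor complex, was at 895 ± 54.7 and 935 ± 59.0 CPM. Cx3cr1 lay between 2.62 and 31.3 CPM in all 11 libraries. These genes do not measure purity. The 19 B cell genes described below summed to means of 5032 CPM in ND and 6527 CPM in CD-HFD.

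The libraries of the CD-HFD group were not equally alike. After the group mean was removed, libraries 1 and 2, 3 and 4, and 5 and 6 resembled each other (Pearson's r across genes 0.23 to 0.64 within these 3 pairs), while all 12 other CD-HFD pairs had a negative r, from -0.57 to -0.04. In ND, the pairs 1 with 2 and 3 with 4 had an r of -0.34 and -0.07. Removing the group mean by itself pushes r below 0 between unrelated libraries. A negative r therefore does not show unlikeness, and only the positive values stand out. The light chain gene Iglc1 shows the pattern in 1 gene: it was at 432 and 405 CPM in CD-HFD libraries 3 and 4 and at 4.86 to 15.1 CPM in the other 4. A light chain gene was shared by adjacent ND libraries too. Iglc3 was at 396 and 495 CPM in ND libraries 1 and 2 and at 10.7 to 62.7 CPM in ND libraries 3 to 5. The values of r therefore do not show that adjacent ND libraries are unrelated. Within each adjacent pair the counts differed by more than sampling noise (chi-square per degree of freedom 1.13 for ND 3 and 4 to 2.28 for ND 1 and 2) and no library was a copy of its neighbour. This does not show that they came from separate animals, and they were kept separate because the labels list them as separate samples. Whether adjacent libraries share an animal, a sort or a plate position was not tested. If they do, the p-values given here are too small, and the fits that sum or leave out such pairs are therefore given beside the results they change.

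**Figure D1:**
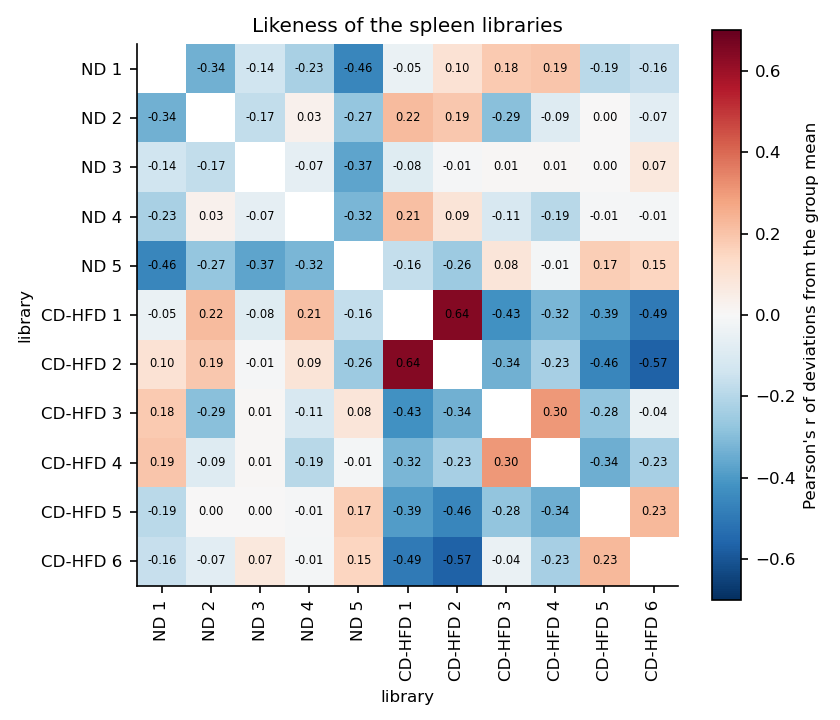
Pearson's r, across genes, between the deviations of each spleen library (rows and columns) from its group's mean; red is positive and blue is negative. The 3 red blocks on the CD-HFD diagonal are the pairs 1 and 2, 3 and 4, and 5 and 6, with an r of 0.23 to 0.64, and no such blocks are seen in ND.

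Diet changed 2 genes in the spleen cells at an adjusted p under 0.05. The lysozyme gene Lyz2 was higher and the non-coding gene Gm26917 was lower under CD-HFD, each 0.0162% of the genes tested and together 0.0324%. At an unadjusted p under 0.05 there were 274 genes, 4.44% of those tested, of which 170 were higher (2.75%) and 104 lower (1.68%). The 5 ND and 6 CD-HFD libraries did not overlap in 46 genes (0.745%), with 27 higher (0.437%) and 19 lower (0.308%) under CD-HFD. The log2 fold change had a median of 0.00 over all genes, and 3080 genes (49.9%) had a positive one.

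With libraries taken as independent and an approximate standard error, the data limited the size of change for most genes. The median standard error (SE) of a log2 fold change was 0.21, and the 95% interval lay within a 2-fold change either way in 5668 genes (91.8%), and within 1.5-fold in 52.4%. A log2 fold change beyond 1 in either direction was seen in 48 genes, and only 14 of these had a mean of at least 20 CPM in both groups. Leaving out CD-HFD libraries 1 and 2 together, an alternative chosen after the data were seen, gave 21 genes higher and 8 lower. Leaving out any of the other 4 pairs gave 0 higher and 0 to 2 lower, with 212 to 250 genes at an unadjusted p under 0.05. For genes such as Pdcd1 and Gzmk, libraries 1 and 2 were the CD-HFD libraries nearest the ND level. Leaving them out enlarges such changes, so a pass in that fit, where given below, is not support for a diet effect. Summing each pair of adjacent libraries gave 0 and 0 by edgeR, with 165 genes at an unadjusted p under 0.05.

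**Figure D2:**
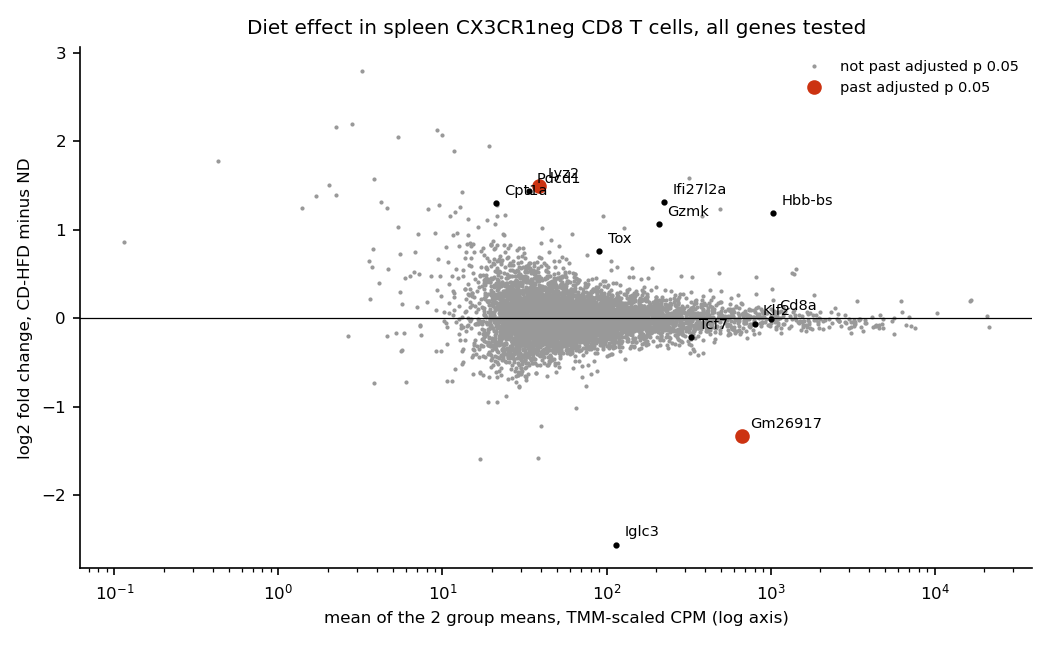
Log2 fold change (CD-HFD minus ND) of the 6174 tested genes against their mean level in TMM-scaled CPM on a log axis; red points passed an adjusted p of 0.05 and black points are named genes that did not. Most genes lie near 0, with Lyz2 and Gm26917 the 2 that passed.

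Gm26917 gave the lower p of the 2. It is a long intergenic non-coding RNA gene on chromosome 17 (GRCm38, 39843013 to 39846341, plus strand), and its name lies outside the rule for naming genes, so it is given because it was 1 of only 2 calls. The ND libraries were at 783, 980, 1079, 987 and 1009 CPM, and the CD-HFD libraries 1 to 6 at 445, 506, 383, 402, 233 and 252 CPM. Every CD-HFD library lay below every ND library, and libraries 5 and 6 were the lowest. The log2 fold change was -1.33 ± 0.22 (SE; adjusted p = 0.00938). The call held without each of the 11 libraries in turn, but not when adjacent libraries were summed (-1.36, adjusted p = 0.465) or when any pair but CD-HFD 1 and 2 was left out (adjusted p 0.0543 to 0.156).

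The neighbour of Gm26917 on the same strand is Gm42418, whose annotated sequence, 616 bases further on, holds part of the 18S ribosomal RNA. Gm42418 was at 10355 to 28807 CPM in ND and 10336 to 24088 CPM in CD-HFD, with no separation of the groups. The ribosomal RNA gene n-R5-8s1, however, was among the 3 genes called lower under CD-HFD when no low-count filter was used. A fit that paired libraries of the same number called it as well. Gm26917 and Gm42418 lie at a ribosomal RNA sequence in the assembly, and reads of near-identical ribosomal copies cannot be placed with certainty. The part of such reads in the Gm26917 difference was not tested.

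Lyz2 (chromosome 10, 117277331 to 117282321, minus strand) encodes lysozyme, a bacteria-degrading enzyme of macrophages, monocytes and neutrophils. It was at 10.5, 25.6, 32.3, 15.3 and 18.8 CPM in the ND libraries and at 49.3, 64.6, 65.4, 25.1, 82.6 and 57.1 CPM in CD-HFD libraries 1 to 6. CD-HFD library 4 fell within the ND range and the other 5 were above it. The log2 fold change was 1.49 ± 0.31 (SE; 95% interval 0.88 to 2.10; adjusted p = 0.0133). The call was lost without ND library 1 or 4 or CD-HFD library 2, 3 or 5 (adjusted p 0.0650 to 0.283), with adjacent libraries summed (0.186), in DESeq2 (0.406) and in glmTreat against a fold of 1.2 (0.0588). It was also lost without ND libraries 1 and 2 (0.397), ND 3 and 4 (0.175) or CD-HFD 3 and 4 (0.0547), and without CD-HFD 1 and 2 or 5 and 6 the gene did not pass the low-count filter. In the fits that lost the call the log2 fold change lay between 1.33 and 1.59.

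**Figure D3:**
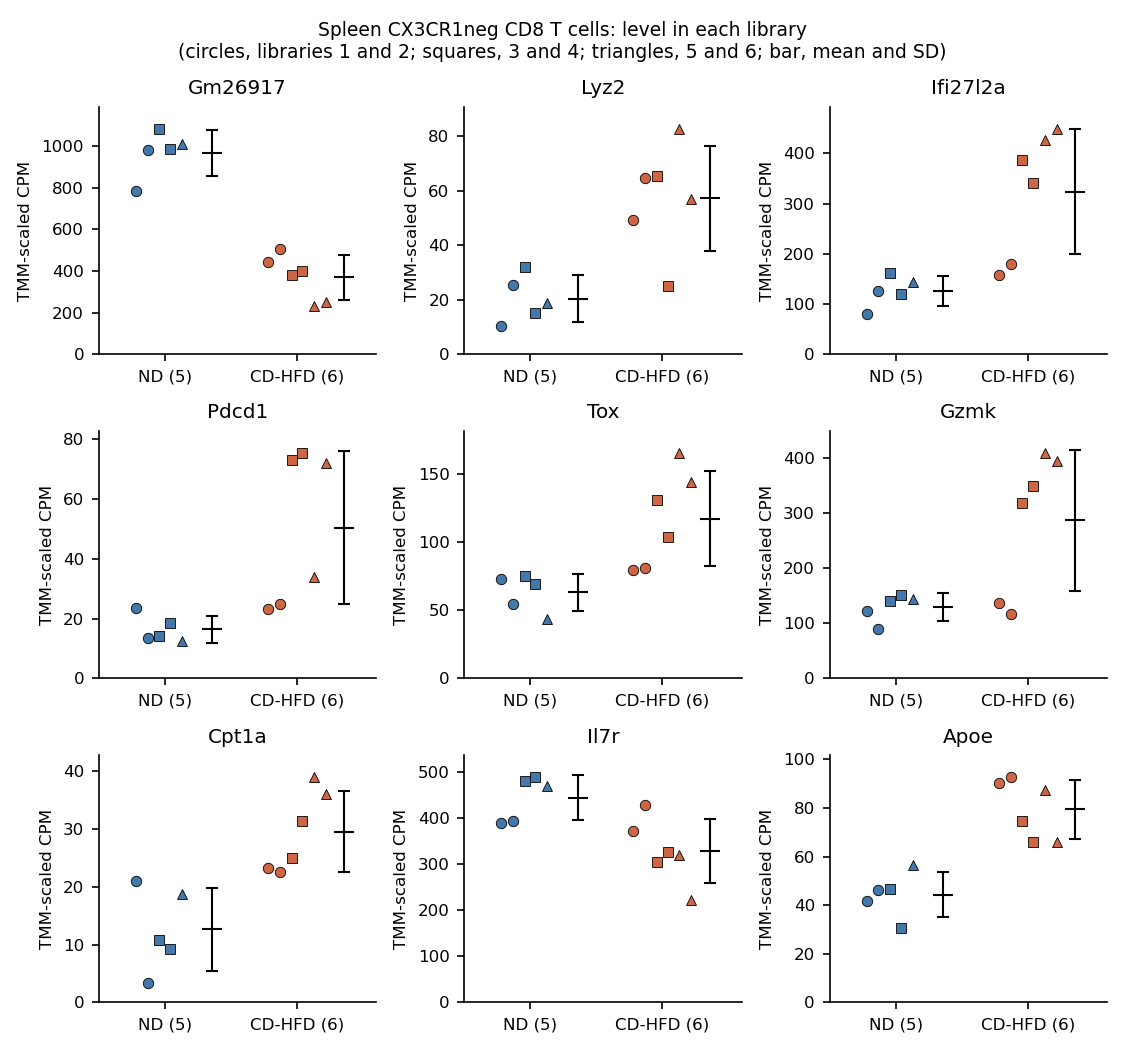
Level of 9 genes in each spleen library (TMM-scaled CPM, axes from 0) under ND (blue) and CD-HFD (orange); the marker shape gives the pair of adjacent library numbers and the bar gives the mean and SD. Gm26917 separates the diets in all libraries, whereas for Ifi27l2a, Pdcd1 and Gzmk CD-HFD libraries 1 and 2 (circles) lie in or near the ND range and libraries 3 to 6 lie above it.

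The genes with the next smallest p-values did not pass. Ifi27l2a (chromosome 12, 103442167 to 103443680, minus strand), a small mitochondrial protein induced by type I interferon, was at 81.2, 126, 161, 121 and 144 CPM in ND and at 159, 181, 388, 342, 427 and 448 CPM in CD-HFD. Its 4 highest libraries were CD-HFD 3 to 6, and the log2 fold change was 1.31 ± 0.27 (adjusted p = 0.112). It passed in DESeq2 (1.35, adjusted p = 0.0116) and without CD-HFD libraries 1 and 2 (1.69, adjusted p = 1.37e-06). H2-T23, which encodes Qa-1, a non-classical MHC class I molecule recognised by inhibitory receptors of the NKG2A family, was at 182 to 279 CPM in ND and 248 to 441 CPM in CD-HFD, a log2 fold change of 0.48 ± 0.12 (adjusted p = 0.287). It too passed without CD-HFD libraries 1 and 2 (0.67, adjusted p = 0.00197).

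Of 47 tested genes of the interferon list, none passed, 31 had a positive log2 fold change, and the median was 0.12, against 0.00 over all genes. Ifit3, an antiviral RNA-binding factor, was at 36.7, 35.9, 46.6, 36.8 and 62.7 CPM in ND and at 78.1, 63.5, 74.8, 59.6, 48.6 and 51.1 CPM in CD-HFD (log2 fold change 0.69 ± 0.23, adjusted p = 0.684). In contrast to Ifi27l2a, its highest libraries were CD-HFD 1 and 3. Isg15, a ubiquitin-like modifier, was at 20.5 to 37.6 CPM in ND and 24.3 to 37.4 CPM in CD-HFD (0.29 ± 0.26), and Plscr1, an interferon-induced membrane lipid scramblase, was at 3.41 to 9.21 CPM in ND and 5.48 to 29.1 CPM in CD-HFD (1.43 ± 0.46, adjusted p = 0.641). Without CD-HFD libraries 1 and 2 Plscr1 passed (1.93, adjusted p = 0.0178). MHC class I and antigen presentation genes had a median of 0.08, with 17 of 23 positive and none passed.

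The promoters of Ifit3 and Isg15 are shown because they carry the interferon-response motif that this list is known for, so that the values can be read beside the sequence. The 250 bases before the start of each gene were taken from RefSeq on GRCm38.p6, as chr19:34583279-34583528 (plus strand) for Ifit3 and chr4:156200819-156201068 (minus strand) for Isg15, and are given 5′ to 3′ with matches in capitals.
Ifit3: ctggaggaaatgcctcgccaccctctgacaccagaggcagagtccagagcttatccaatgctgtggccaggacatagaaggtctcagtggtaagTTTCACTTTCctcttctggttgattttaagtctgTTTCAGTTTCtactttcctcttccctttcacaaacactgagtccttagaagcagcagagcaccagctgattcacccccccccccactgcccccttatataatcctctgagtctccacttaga
Isg15: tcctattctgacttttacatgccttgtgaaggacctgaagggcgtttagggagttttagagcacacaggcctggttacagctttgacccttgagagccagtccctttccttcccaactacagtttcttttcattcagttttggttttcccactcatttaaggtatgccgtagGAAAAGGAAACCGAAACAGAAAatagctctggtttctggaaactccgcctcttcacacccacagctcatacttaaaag
The motif searched was GAAANNGAAA on either strand, which reads TTTCNNTTTC on the other. Ifit3 had 2 matches, whose first bases lay 156 and 122 bases before the start, and Isg15 had 3 that overlap each other, at 78, 72 and 66 bases. The motif was present in 978 of 32851 promoters (2.98%), in 182 of 4577 tested genes matched by symbol (3.98%) and in 18 of 37 matched genes of the interferon list (48.6%). A match describes the letters only.

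Inhibitory receptors and exhaustion genes were the T cell program with the highest median. None of 21 tested members passed, 16 had a positive log2 fold change, and the median was 0.54. Pdcd1 (chromosome 1, 94038305 to 94052553, minus strand) was at 23.6, 13.7, 14.3, 18.4 and 12.5 CPM in ND and at 23.3, 24.8, 73.2, 75.3, 34.0 and 72.1 CPM in CD-HFD. CD-HFD libraries 3, 4 and 6 were about 3 times the highest ND library and libraries 1 and 2 were at its level. The log2 fold change was 1.43 ± 0.37 (adjusted p = 0.444), and without CD-HFD libraries 1 and 2 it was 1.96 (adjusted p = 2.58e-06). That rise follows from dropping the least changed libraries. Without CD-HFD libraries 3 and 4, or 5 and 6, no gene passed.

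Tox, which encodes the transcription factor that sustains exhausted T cells, was at 73.3, 54.6, 75.3, 69.1 and 43.9 CPM in ND and at 79.5, 80.7, 131, 104, 165 and 144 CPM in CD-HFD. The groups did not overlap, though CD-HFD libraries 1 and 2 stood only just above the highest ND library. The log2 fold change was 0.76 ± 0.24 (adjusted p = 0.733), and without those libraries it was 1.04 (adjusted p = 0.0102). Lag3, an inhibitory receptor that binds MHC class II, had 18 counts over the CD-HFD libraries and 1 over the ND libraries, a ratio of 11.7 with a 95% counting interval of 1.85 to 489. Tigit, an inhibitory receptor for nectin-family ligands, was at 0 to 7.67 CPM in ND and 2.74 to 40.5 CPM in CD-HFD, and Havcr2 (TIM-3) was at 7.17 to 12.5 and 5.38 to 28.2 CPM. The transcription factor genes Maf (5.12 to 32.3 against 5.38 to 56.5 CPM) and Batf (57.4 to 85.4 against 77.5 to 151 CPM) overlapped between the diets, as did the inhibitory receptor gene Ctla4 (3.41 to 18.8 against 3.14 to 36.1 CPM). Without CD-HFD libraries 1 and 2, Tigit (2.78, adjusted p = 0.00378) and Maf (1.87, adjusted p = 0.0423) passed.

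Cytotoxic and memory genes had medians slightly above 0. No member passed in either list: 15 of 25 cytotoxic genes were positive with a median of 0.13, and 16 of 26 memory genes with a median of 0.09. Gzmk, the granzyme of early memory CD8 T cells, was at 123, 88.8, 140, 152 and 144 CPM in ND and at 137, 116, 318, 348, 408 and 394 CPM in CD-HFD (log2 fold change 1.06 ± 0.32, adjusted p = 0.684). CD-HFD libraries 1 and 2 lay inside the ND range and the other 4 were more than 2 times as high as its top. S100a4, a calcium-binding protein of motile memory cells, had the same layout, with 41.1 and 44.1 CPM in libraries 1 and 2 and 166 to 180 CPM in libraries 3 to 6, against 39.3 to 113 CPM in ND (1.16 ± 0.41, adjusted p = 0.935). Without libraries 1 and 2 both genes passed, with log2 fold changes of 1.51 for Gzmk (adjusted p = 0.00299) and 1.75 for S100a4 (adjusted p = 0.000347).

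Other effector transcripts overlapped between the diets. Ccl5, a chemokine stored in memory CD8 T cells, was at 13542 to 19110 CPM in ND and 13121 to 22840 CPM in CD-HFD (0.21 ± 0.10), and Nkg7, a cytotoxic granule protein, was at 3010 to 3292 and 2998 to 4172 CPM (0.20 ± 0.09). Gzmb was at 52.4 to 119 and 40.9 to 198 CPM (0.64 ± 0.45), and Fasl, which encodes the Fas ligand, was at 44.5 to 72.1 and 56.0 to 84.9 CPM (0.19 ± 0.18). The chemokine receptor gene Cxcr6 was at 169 to 257 CPM in ND and 126 to 264 CPM in CD-HFD. None of these 5 genes passed.

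The naive and central memory program had a median slightly below 0. None of 23 tested members passed, 4 were positive, and the median was -0.12. Il7r was at 390, 393, 480, 488 and 470 CPM in ND and at 371, 428, 304, 326, 321 and 222 CPM in CD-HFD. CD-HFD library 2 lay within the ND range and the other 5 below it (log2 fold change -0.40 ± 0.14, adjusted p = 0.901; without libraries 1 and 2, -0.59, adjusted p = 0.0228). Tcf7 was at 257 to 381 CPM in ND and 258 to 367 CPM in CD-HFD (-0.22 ± 0.12).

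Genes of recirculation overlapped between the diets. S1pr1, the receptor that lets T cells leave lymphoid organs, was at 314 to 448 CPM in ND and 316 to 414 CPM in CD-HFD (-0.12 ± 0.12). Klf2, the transcription factor that drives S1pr1, was at 792 to 861 CPM in ND and 505 to 938 CPM in CD-HFD, with a log2 fold change of -0.06 ± 0.11 that turned to 0.02 without CD-HFD library 5. The median of 18 tested recirculation genes was -0.08, that of 17 tissue residency genes 0.06, and none passed. Ccr7, the lymph node homing receptor, was at 188 to 337 and 186 to 355 CPM. Foxo1, the transcription factor of quiescence upstream of several of these genes, was at 25.1 to 64.5 and 26.9 to 46.7 CPM (-0.42 ± 0.25), and Il15ra, a chain of the IL-15 receptor, was at 12.0 to 25.1 and 15.1 to 38.9 CPM (0.38 ± 0.35).

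**Figure D4:**
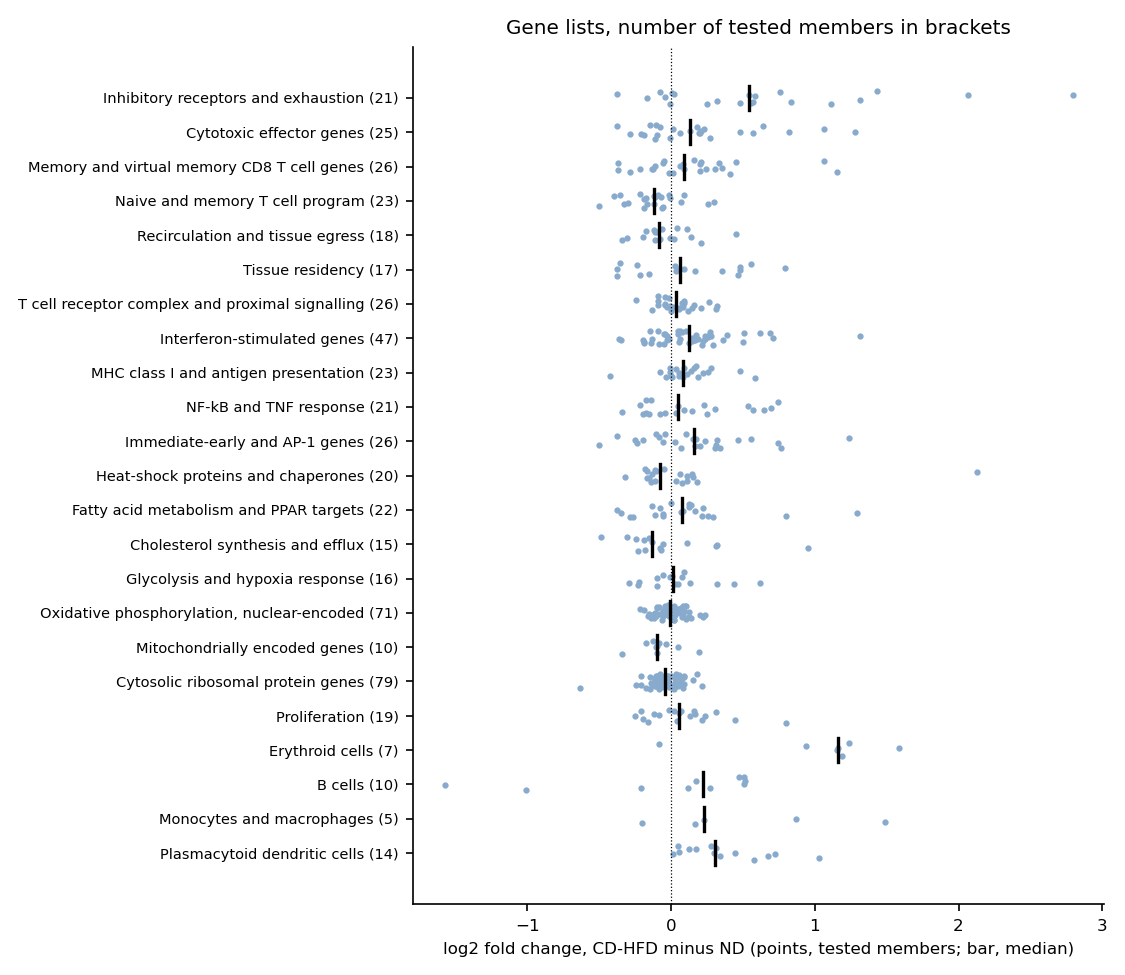
Log2 fold change (CD-HFD minus ND) of every tested member of 23 gene lists (points) with the list's median (bar); the number of tested members stands in brackets. Medians of most lists lie near 0, with erythroid genes (1.16) and inhibitory receptors (0.54) farthest to the right.

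Metabolic lists stayed near 0 as a whole, with single genes apart. In the fatty acid list none of 22 members passed and the median was 0.08. Cpt1a (chromosome 19, 3322334 to 3385733, plus strand), the rate-limiting enzyme of fatty acid entry into mitochondria and a target of PPAR receptors, was at 21, 3.41, 10.8, 9.21 and 18.8 CPM in ND and at 23.3, 22.6, 24.9, 31.4, 38.9 and 36.1 CPM in CD-HFD. The groups did not overlap, and the log2 fold change was 1.30 ± 0.38 (adjusted p = 0.510; limma voom with quality weights, 1.52 and 0.0457). Slc25a20, the carnitine carrier that works with it, was at 10.5 to 28.7 and 27.4 to 72.8 CPM (0.80 ± 0.29, adjusted p = 0.935), and Ucp2, a mitochondrial carrier that is also a PPAR target, was at 114 to 183 and 138 to 232 CPM (0.29 ± 0.14).

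Other energy genes gave no called change. Hk1, the first enzyme of glycolysis, was at 41.9 to 53.8 CPM in ND and 58.9 to 90.1 CPM in CD-HFD without overlap (0.62 ± 0.21, adjusted p = 0.733), while the glycolysis list had a median of 0.01 over 16 genes. The 71 nuclear genes of oxidative phosphorylation had a median of -0.01 and all lay between -0.22 and 0.23. Of 10 mitochondrially encoded genes 8 were negative with a median of -0.10, and mt-Nd5, a subunit of complex I, was at 348 to 401 CPM in ND and 249 to 348 CPM in CD-HFD (-0.35 ± 0.12, adjusted p = 0.752). Of 15 cholesterol genes, 11 were negative with a median of -0.14. Cytosolic ribosomal protein genes had a median of -0.05 over 79 genes.

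Signalling, stress and survival lists held no called gene. The T cell receptor list had a median of 0.03 over 26 genes, NF-kB and TNF response genes 0.05 over 21, heat-shock genes -0.08 over 20, and proliferation genes 0.06 over 19. Immediate-early genes had a median of 0.16 over 26: Junb, an AP-1 subunit induced within minutes of stimulation or handling, was at 420 to 466 CPM in ND and 384 to 763 CPM in CD-HFD, highest in CD-HFD library 1 (0.31 ± 0.12, adjusted p = 0.935). Bcl2a1d, a pro-survival BCL2 relative, was at 7.86 to 18.8 CPM in ND and 11.8 to 63.1 CPM in CD-HFD (1.17 ± 0.34, adjusted p = 0.510), and its near-identical copy Bcl2a1b at 23 to 69 and 35.6 to 105 CPM (0.65 ± 0.27), though reads of these copies cannot be told apart with certainty. Without CD-HFD libraries 1 and 2 Bcl2a1d passed (1.68, adjusted p = 0.00299). Tnfrsf4 (OX40), a costimulatory receptor, was at 3.59 to 10.5 CPM in ND and 12.3 to 68.0 CPM in CD-HFD without overlap (1.95 ± 0.80, adjusted p = 0.991). All 8 GIMAP genes, GTPases of lymphocyte survival, were positive with a median of 0.10, and 2 of 13 glucocorticoid-induced genes were, with a median of -0.12.

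Marker transcripts of other cell types were also compared, and none of their sums passed after adjustment over 49 lists. The smallest exact permutation p the design allows, 0.00216, became 0.106 after adjustment. A single list could therefore not pass, and not passing carries little weight. In bulk RNA, fewer cells of a type and less RNA per cell cannot be told apart. The summed level of 11 erythroid genes, the red cell lineage, was 879 to 2038 CPM in ND and 2411 to 5247 CPM in CD-HFD, with no overlap and a ratio of means of 2.29 (exact two-sided permutation p = 0.00216, the smallest the design allows; adjusted p = 0.106). Hbb-bs, an adult beta-globin gene, was at 843, 398, 642, 648 and 633 CPM in ND and at 1095, 1043, 2342, 1563, 1204 and 1349 CPM in CD-HFD. The 4 globin genes had log2 fold changes of 1.59 ± 0.47 (Hbb-bt), 1.24 ± 0.41 (Hba-a1), 1.19 ± 0.42 (Hbb-bs) and 1.16 ± 0.41 (Hba-a2), with adjusted p from 0.641 to 0.935. Alas2, the heme synthesis enzyme of red cell precursors, was at 1.53 to 21 CPM in ND and 9.59 to 29.1 CPM in CD-HFD (0.94 ± 0.49), so the groups overlapped.

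Macrophage transcripts were read beside the Lyz2 call. The sum of 20 monocyte and macrophage genes, Lyz2 among them, was 195 to 262 CPM in ND and 260 to 366 CPM in CD-HFD (ratio 1.44, exact permutation p = 0.00649, adjusted 0.141). The sum is therefore not independent of the call. Its mean was 215 CPM in ND and 309 CPM in CD-HFD, of which Lyz2 alone gave 20.5 and 57.3 CPM. Only 1 of the 20, Clec4f, was at 0 in all 11 libraries, and 5 were tested, of which 1 passed (Lyz2) and 4 were positive, with a median of 0.23. Cd68, a lysosomal protein of macrophages, was at 6.83 to 25.1 CPM in ND and 12.6 to 63.1 CPM in CD-HFD (0.87 ± 0.37, adjusted p = 0.991). Of 12 neutrophil genes, 9 were at 0 in every library, S100a9 among them. The part of other cells in the Lyz2 difference was not tested.

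B cell transcripts differed between libraries of 1 diet. The sum of 19 B cell genes was 4071 to 6188 CPM in ND and 5460 to 7644 CPM in CD-HFD (ratio 1.30, exact permutation p = 0.0303, adjusted 0.227). Of 10 tested B cell genes none passed and 7 had a positive log2 fold change, with a median of 0.22. Cd74, the MHC class II invariant chain, was at 852 to 1925 CPM in ND and 1067 to 2262 CPM in CD-HFD, overlapping (0.50 ± 0.38). The lambda light chain gene Iglc3 was at 396 and 495 CPM in ND libraries 1 and 2 and at 10.7 to 62.7 CPM in ND libraries 3 to 5, against 24.3 to 43.9 CPM in CD-HFD. Its log2 fold change of -2.56 ± 0.64 (adjusted p = 0.444) turned to 0.88 without ND libraries 1 and 2, and passed at -3.29 without ND libraries 3 and 4 (adjusted p = 0.000217). Iglc2 was likewise highest in ND libraries 1 and 2 (94.3 and 125 CPM, against 4.86 to 37.6 CPM in the other 9), and it passed without ND libraries 3 and 4 (-2.18, adjusted p = 6.97e-05). For Iglc3 and Iglc2, ND libraries 3 and 4 were the lowest of the ND group. Leaving them out enlarges the change, so neither pass is support for a diet effect. Jchain, which joins IgM and IgA in plasma cells, was at 18.8 CPM in ND library 5, at 4.86 and 6.01 CPM in CD-HFD libraries 5 and 6, and at 40.8 to 123 CPM in the other 8. Igkc and Ighm overlapped between the diets (520 to 1074 against 156 to 1643 CPM, and 445 to 683 against 273 to 1255 CPM).

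Further marker sums overlapped or differed by less. The 18 hepatocyte genes summed to 52.4 to 108 CPM in ND and 97.3 to 151 CPM in CD-HFD (adjusted p = 0.141). Apoe, a lipoprotein component that macrophages and hepatocytes both make, was the 1 tested gene of that list, at 41.9, 46.1, 46.6, 30.7 and 56.4 CPM in ND and at 90.4, 92.6, 74.8, 65.9, 87.4 and 66.1 CPM in CD-HFD, with no overlap (log2 fold change 0.95 ± 0.29, adjusted p = 0.641). It passed when the spleen libraries were fitted alone (0.96, adjusted p = 0.0122). The hepatocyte sum had a mean of 70.6 CPM in ND and 116 CPM in CD-HFD, of which Apoe alone gave 44.3 and 79.5 CPM. That sum is therefore not independent of Apoe. Genes of CD4 and regulatory T cells summed to 249 to 314 and 272 to 505 CPM, and NK cell genes to 905 to 1008 and 737 to 977 CPM. The 12 genes of conventional dendritic cells summed to 1416 to 1762 CPM in ND and 1495 to 3026 CPM in CD-HFD (ratio 1.37, exact permutation p = 0.0779, adjusted 0.347). Of the mean sums, 1565 CPM in ND and 2150 CPM in CD-HFD, Cst3 alone gave 1149 and 1702 CPM. Ccr7, described above as a T cell gene, gave 269 and 262 CPM. Only 3 of the 12 genes were tested, so this sum does not measure dendritic cells. T cell identity genes summed to 13825 to 14633 CPM in ND and 13724 to 15351 CPM in CD-HFD, a ratio of 1.03.

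Set against liver CD8 T cells of the same study, the response in the spleen was small. In the same fit, diet changed 697 genes (11.3%) in liver CXCR6pos cells, the fraction with the residency receptor, and 29 genes (0.470%) in liver CXCR6neg cells. The difference in diet effect between spleen and liver CXCR6pos cells passed the test in 246 genes (3.98%), with 171 more positive in the spleen (2.77%) and 75 more negative (1.21%). Against liver CXCR6neg cells 0 genes passed by edgeR, and 319 (5.17%) had an unadjusted p under 0.05.

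The difference from CXCR6pos cells was called in 6 of 21 tested genes of the inhibitory receptor and exhaustion list and in 15 of 23 of the naive and memory list, against 3.98% of all genes tested. Among those not called were Lag3 (adjusted p = 0.914), Tigit (-1.05 ± 1.21, adjusted p = 0.791) and Maf (-2.88 ± 0.94, adjusted p = 0.0902). For Pdcd1 the diet effect was 1.43 ± 0.37 in the spleen and 3.38 ± 0.25 in liver CXCR6pos cells on the log2 scale, a difference of -1.95 ± 0.52 (adjusted p = 0.0233). For Tox the effects were 0.76 and 2.40, a difference of -1.65 ± 0.35 (adjusted p = 0.00288), so spleen and liver had the same sign with different sizes. For Il7r the effects were -0.40 and -2.76, a difference of 2.36 ± 0.29 (adjusted p = 5.65e-08), and for Tcf7 they were -0.22 and -2.05, a difference of 1.83 ± 0.24 (adjusted p = 6.71e-09). Lgals3, which encodes the carbohydrate-binding protein galectin-3, had opposite signs, with 1.01 ± 0.33 in the spleen and -1.47 ± 0.32 in liver CXCR6pos cells (difference 2.48 ± 0.46, adjusted p = 0.00124).

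For some genes no difference from the liver was called. Ifi27l2a had a diet effect of 1.31 in the spleen, 1.69 in liver CXCR6neg cells and 1.74 in liver CXCR6pos cells, and the spleen differed from CXCR6pos cells by -0.43 ± 0.41 (adjusted p = 0.734). Gm26917 had effects of -1.33, -0.28 and -1.11 (spleen minus CXCR6pos -0.22 ± 0.40, adjusted p = 0.882). Gzmk had effects of 1.06, 1.14 and 2.02 (difference from CXCR6pos -0.95 ± 0.45, adjusted p = 0.313). A p above the threshold does not show that the tissues respond alike.

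**Figure D5:**
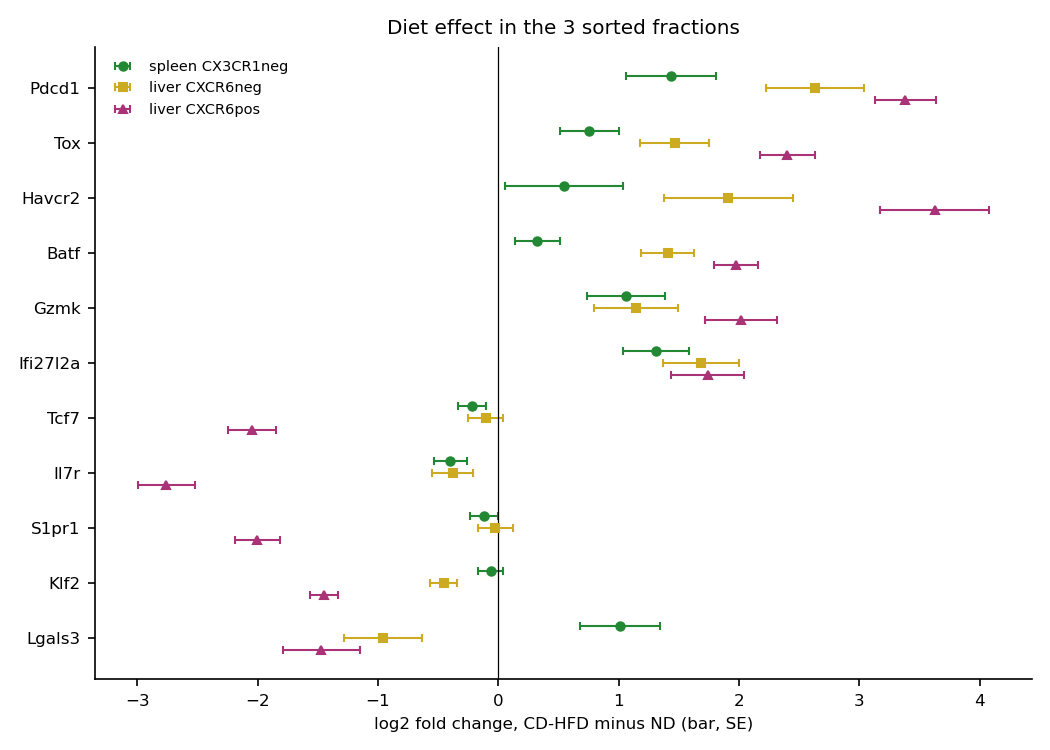
Diet effect (log2 fold change, CD-HFD minus ND; bar, SE) of 11 genes in spleen CX3CR1neg cells (circles), liver CXCR6neg cells (squares) and liver CXCR6pos cells (triangles). Tcf7, Il7r, S1pr1 and Klf2 lie near 0 in the spleen and between -2.76 and -1.45 in liver CXCR6pos cells.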

How the data were processed

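Bulk 3′-end RNA-seq was made with sample barcodes and molecular identifiers, per the labels' protocols. The authors deposited raw whole-number counts per gene symbol. The genome build was GRCm38.p6 and the authors used DESeq2 1.14.1, per the submitters' processing notes. The aligner, counting program, use of strand and any collapsing of molecular identifiers were not given in the sources used here.

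Here 32 libraries of 6 groups were fitted together in edgeR 4.0.16 (R 4.3.3): filterByExpr, TMM, robust quasi-likelihood test, Benjamini-Hochberg adjustment over 6174 genes, threshold 0.05. The plan named all samples, but a library identical in 2 groups (ND spleen 6 and ND liver CXCR6neg 1) was left out, and 1 column matched no sample. The SE is the log2 fold change divided by the square root of F. It is approximate and can be too small where the change is near 0 and counts are few. For Lag3 it was 0.11 for the difference from liver CXCR6pos cells, against 0.92 in the spleen alone. Interactions come from the same fit. Marker sums were compared by exact two-sided permutation tests, adjusted over 49 lists. Intervals for counts cover counting error only. No label ties a library to an animal of its own; the p-values reflect only the variation among libraries, part of which may be technical.

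Named genes are those past the threshold whose higher group averaged 20 CPM or more (up to 15 a direction, and 4 of a list), a set of T cell genes, the 20 smallest p-values and up to 10 interaction genes, without predicted or unnamed models and immunoglobulin segments. Of these, some are not named here. Chosen after their values were seen are Gm26917, Gm42418, Tigit, Lag3, Ctla4, Havcr2, Tnfrsf4, Gzmk, Nkg7, Ccl5, Slc25a20, Ucp2, the globins, Alas2, Bcl2a1b, Igkc, Ighm, Iglc1, Iglc2, Iglc3, Jchain, Cd74, Ifit3, Isg15, Maf, S100a4, Cd68, Lgals3, Junb, Hk1 and mt-Nd5. The comparison, members and lists were chosen with earlier results of these data known. Of 22865 symbols 22662 matched GENCODE M21, from which coordinates come. The script was tested on simulated data. Alternatives were other normalizations (RLE, upper quartile), filters, DESeq2 1.42.0, limma 3.58.1, a replicate block and libraries left out. One gene is not reported here.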

Additional observations from a re-analysis of the deposited data

Results flagged for a closer look

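In 19 genes, among those the naming rule gave and those described above, the diet effect differed between spleen CX3CR1neg and liver CXCR6pos cells by the edgeR interaction test. Over all 6174 genes tested it differed in 246 (3.98%). Some of the 19 were named for a small interaction p against liver CXCR6neg cells, and others after their values were seen. The count is therefore no measure of how often such genes differ. Spleen minus liver, on the log2 scale, the difference was negative for Pdcd1 (-1.95), Tox (-1.65), Havcr2 (-3.08), Ctla4 (-3.52), Batf (-1.65), Ccl5 (-0.84), Nkg7 (-0.68) and Cd3e (-0.68). It was positive for Tcf7 (1.83), Il7r (2.36), Ccr7 (2.78), S1pr1 (1.88), Klf2 (1.39), S1pr5 (3.32), Jaml (2.13), Snord118 (1.93), Lgals3 (2.48), Jun (2.47) and Junb (0.50). Adjusted p ran from 5.35e-11 for Klf2 to 0.0429 for Junb. None of these 19 genes was called in the spleen alone.

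In 12 of 158 sets of values, 1 library stood apart from the rest. Each set was a gene, a list sum or a library measure in 1 diet group, and all 12 were genes. The cut-off gives about 5% of sets for normally distributed values. Low counts such as those of Lag3 are skewed, so the 12 cannot be read against that rate. The measure is the gap to the nearest library divided by the range of the group. ND library 5 stood apart in 5 genes: it was highest for Cd74 (1925 CPM, gap 0.805 of the range) and Cx3cr1 (31.3 CPM, 0.735), and lowest for Tcf7 (257 CPM, 0.808), Ighm (445 CPM, 0.922) and Jchain (18.8 CPM, 0.783). That library was the shallowest of the spleen libraries (169106 counts), and its Cx3cr1 value rests on 5 counts. ND library 1 was the highest for Gm42418 (28807 CPM, 0.833). ND library 3 was the highest for Maf (32.3 CPM, 0.958) and the only ND library with a Lag3 count (3.59 CPM, 1.0). CD-HFD library 5 was the highest for Batf (151 CPM, 0.729) and Slc25a20 (72.8 CPM, 0.744). CD-HFD library 4 was the highest for Cx3cr1 (28.2 CPM, 0.811) and CD-HFD library 6 for Ctla4 (36.1 CPM, 0.762).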

How the results depend on the processing

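Against 1 gene higher and 1 lower in edgeR, RLE and upper-quartile scaling, a filter of 20 CPM in 5 libraries (7589 genes kept) and keeping the sixth ND library gave the same 2 genes, and DESeq2 gave 1 and 1, Gm26917 and Ifi27l2a. Without a filter there were 5 and 3, with the spleen fitted alone 3 and 1, with glmTreat against a fold of 1.2 0 and 1 (115 genes at an unadjusted p under 0.05), and with voom quality weights 2 and 1. Leaving out 1 library gave 0 to 4 higher and 1 to 2 lower. Without an adjacent pair the range was 0 to 21 and 0 to 8, the top from CD-HFD 1 and 2, and with pairs summed 0 and 0. With those pairs as a random effect there were 2 and 1 (correlation 0.08).

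A replicate block over 5 same-numbered pairs gave 9 and 4, against 2 and 1 in the same 10 libraries with no block. The labels do not say that numbers pair the samples: r between same-numbered libraries was -0.19 to 0.19, over 0.1 in 2 of 5, and 3 of 11 libraries correlated best with their own number. The difference from liver CXCR6neg cells (0 genes) gave 1 with RLE, 4 without a filter, and 0 to 2 without 1 library, the top without CD-HFD 3. Reversed signs were Iglc3 (without 1 pair -3.29 to 0.88, the top without ND 1 and 2) and Klf2 (0.02 without CD-HFD 5; without 1 pair -0.18 to 0.053, the top without CD-HFD 5 and 6). Marker sums kept their direction and stayed on the same side of the threshold. No single list could cross it, so the latter was nearly fixed in advance. For changed counts the cause was not tested. With this depth, genes below about 20 CPM rest on few counts.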

Other observations

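Further genes among the smallest p-values did not pass and have not been described. Cd82 and Cd81, tetraspanins of the T cell surface, were at 251 to 312 against 336 to 448 CPM (log2 fold change 0.46 ± 0.14, no overlap) and at 17.1 to 47.6 against 41.1 to 87.1 CPM (0.89 ± 0.28, overlapping) in ND and CD-HFD. Sat1, the enzyme that acetylates polyamines, was at 94.3 to 150 against 136 to 175 CPM (0.47 ± 0.15), and Bscl2 (seipin, a lipid droplet protein) at 111 to 167 against 142 to 223 CPM (0.44 ± 0.14). Ikzf3 (Aiolos, a lymphocyte transcription factor) was at 81.5 to 99.7 against 91.8 to 170 CPM (0.58 ± 0.18). Without CD-HFD libraries 1 and 2, Bscl2 (0.62, adjusted p = 0.0272) and Ikzf3 (0.82, adjusted p = 0.0101) passed.

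On the lower side under CD-HFD, Cops7a, a subunit of the COP9 signalosome, was at 78.9 to 100.3 CPM in ND and 29.1 to 64.6 CPM in CD-HFD with no overlap (-0.67 ± 0.19, adjusted p = 0.444). F2rl1, the protease-activated receptor PAR2, was at 62.7 to 120 CPM in ND and 14.6 to 86.1 CPM in CD-HFD (-0.63 ± 0.18, adjusted p = 0.510), and it passed without CD-HFD libraries 1 and 2 (-0.95, adjusted p = 0.0178). All 14 tested genes of the plasmacytoid dendritic cell list had a positive log2 fold change, with a median of 0.31 and none passed.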
